A study of Mus musculus with 6 samples.

Results

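The matrix metalloproteinases (MMPs) and their tissue inhibitors (TIMPs) described here are 10 genes, taken by symbol from a table of 21780 mouse genes: Mmp14, Mmp2, Mmp8, Mmp9, Mmp12, Mmp13 and Mmp19, and Timp1, Timp2 and Timp3. They were picked with the comparison of WGP against PBS already known, so their levels and differences are a description and carry no test. All 10 were among the 14429 genes tested. The RNA came from CD45+CD11b+ myeloid cells that were sorted from the collagenase-digested pancreas of wild-type C57BL/6 mice of 6 to 8 weeks. The 3 WGP libraries came from mice given a single intraperitoneal injection of 1 mg of whole glucan particles (WGP), a particulate yeast β-glucan, in 200 µl of PBS, and the 3 PBS libraries from mice given 200 µl of PBS, all at day 7. Male and female mice were used, but the sex of the mice of a given library is not stated. The libraries are called PBS-1 to PBS-3 and WGP-1 to WGP-3 after their labels. By the study's account each sample was an independent animal, and all came from 1 experiment.

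MMPs are zinc-dependent endopeptidases, made as inactive proenzymes, that cut collagens, gelatin, elastin and other proteins of the extracellular matrix and also process cytokines and cell surface proteins. TIMPs bind the active site of MMPs and block it, and TIMP2 has a second role as the link by which membrane-bound MMP14 captures and activates pro-MMP2. Neutrophils store MMP8 and MMP9 in their granules, macrophages make MMP9, MMP12 and MMP14 among others, and fibroblasts and pancreatic stellate cells are known sources of MMP2, TIMP1 and TIMP3.

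Of the 7 MMPs, Mmp14 and Mmp19 were higher in every WGP library than in every PBS library, Mmp9 and Mmp13 were lower, and Mmp2 was higher by an amount that rested largely on WGP-2. Among the inhibitors Timp2 was lower in the WGP libraries, while the higher means of Timp1 and Timp3 were carried mostly or wholly by WGP-2. By length-scaled level Mmp9 made up most of the MMP transcripts in the PBS libraries, and Mmp14 made up a larger share than Mmp9 in all 3 WGP libraries.

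The sequences before the transcription starts are shown for 3 members, since these genes lie at the ends of the range of differences: Mmp14 and Timp1 had the largest positive and Mmp13 the largest negative log2 fold change of the 10. Each is the 250 bases upstream of the RefSeq start in GRCm38.p6, written 5′ to 3′ on the plus strand, on which all 3 genes lie. Capitals mark the AP-1 motif (TGACTCA or, on the other strand, TGAGTCA), the TATA box motif (TATAAA or TTTATA) and the GC box motif (GGGCGG or CCGCCC).
Mmp13, chr9:7272264-7272513: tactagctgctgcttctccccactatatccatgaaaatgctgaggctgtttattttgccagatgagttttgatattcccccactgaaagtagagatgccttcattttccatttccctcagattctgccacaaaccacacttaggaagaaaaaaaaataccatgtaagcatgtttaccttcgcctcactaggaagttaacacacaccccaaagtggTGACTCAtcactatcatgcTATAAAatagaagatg
Mmp14, chr14:54431348-54431597: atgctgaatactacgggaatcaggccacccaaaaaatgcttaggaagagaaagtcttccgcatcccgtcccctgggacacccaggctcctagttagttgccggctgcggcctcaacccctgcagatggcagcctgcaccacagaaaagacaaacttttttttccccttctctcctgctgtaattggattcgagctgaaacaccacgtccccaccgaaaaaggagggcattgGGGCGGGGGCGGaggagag
Timp1, chrX:20869916-20870165: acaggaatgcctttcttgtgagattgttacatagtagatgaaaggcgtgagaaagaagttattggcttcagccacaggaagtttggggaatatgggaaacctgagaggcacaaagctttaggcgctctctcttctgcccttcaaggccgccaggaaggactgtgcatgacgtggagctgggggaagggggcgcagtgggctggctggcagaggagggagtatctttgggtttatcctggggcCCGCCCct

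RefSeq promoters were matched to 7 of the 10 members, and those of Mmp2, Mmp9 and Mmp19 are not shown. The AP-1 motif, the site of Fos and Jun dimers, was found 35 bases before the start of Mmp13 (position -35), with a TATA box at -16, and neither motif was found before Mmp14 or Timp1. The GC box, a site of Sp1-type factors, was found at -19 and -13 before Mmp14 in adjoining copies, at -8 before Timp1, at -37 before Timp2 and at -15 before Timp3. Mmp12 has 2 starts in the table, the first with none of these 3 motifs and the second with an AP-1 motif at -44, and the window of Mmp8 held none of the 3. The Ets motif known as PEA3 (AGGAAG or CTTCCT) was matched before Mmp13 at -109 and -62, before Mmp14 at -209, before Mmp8 at -220, before the first start of Mmp12 at -87, before Timp1 at -175 and -99 and before Timp3 at -204. In all 32851 promoter windows of this length, 4.46% held the AP-1 motif, 12.4% the TATA box, 32.7% the GC box and 29.5% the Ets motif, on either strand. The AP-1 and TATA motifs also stood before Mmp3, Mmp10, Mmp1a, Mmp1b and Mmp7, neighbours of Mmp13 on chromosome 9. A match is a description of letters and not a measured binding site.

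**Figure D1:**
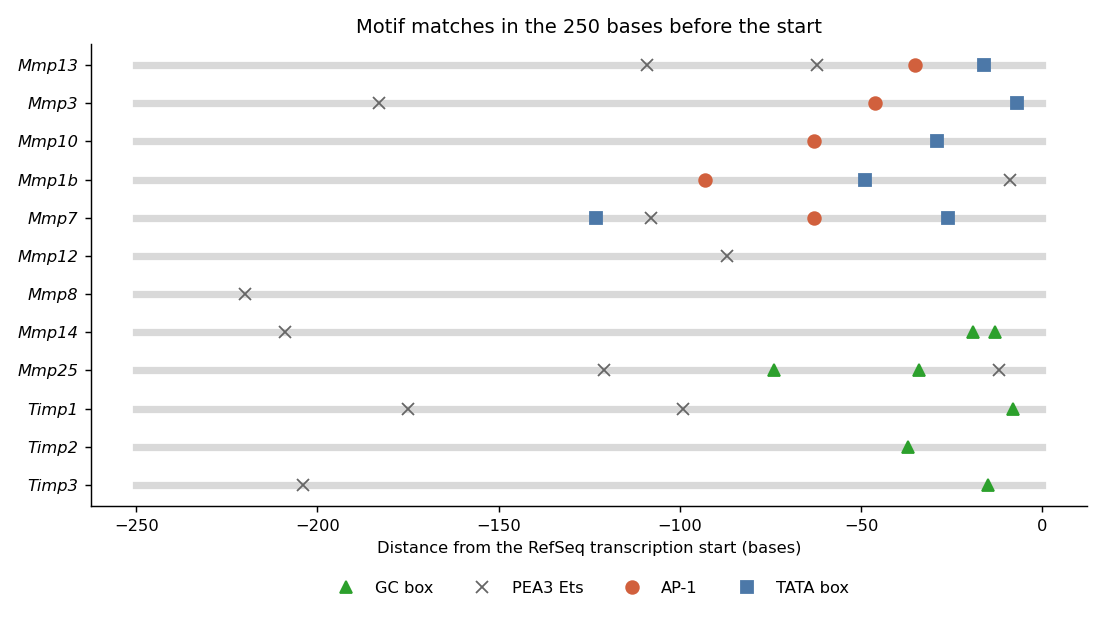
Motif matches in the 250 bases before the RefSeq start of 12 MMP and TIMP genes, with distance from the start in bases on the horizontal axis and 1 row per gene (for Mmp12 the first of its starts). AP-1 and TATA motifs sit together before Mmp13 (-35 and -16) and 4 other plotted MMP genes of chromosome 9, and GC boxes sit before Mmp14 (-19 and -13), Mmp25, Timp1, Timp2 and Timp3.

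The libraries held between 35334645 and 43341834 counts and between 12147 and 12860 genes with at least 1 count. Ptprc (CD45) and Itgam (CD11b), the genes of the sort, were detected in every library, at 949 to 1747 CPM (counts per 10 to the power of 6 after TMM scaling) and 189 to 418 CPM. Both were higher in every WGP library than in any PBS library and passed an adjusted p of 0.05 in edgeR but not a log2 fold change of 1 (Ptprc, log2 fold change 0.71, adjusted p = 0.00725, and Itgam, log2 fold change 0.79, adjusted p = 0.00618). WGP-2 stood apart: the summed level of 11 fibroblast and stellate cell markers was 2313 CPM there against 355 to 427 CPM in the other 5 libraries, and that of 7 mesothelial markers 72.0 against 1.21 to 10.1 CPM. Gsn alone gave 223 to 264 CPM of the fibroblast sum in the PBS libraries, 365 CPM in WGP-1 and 306 CPM in WGP-3. The similar sums of these 5 libraries therefore do not show similar levels of the other fibroblast markers. Y-linked genes had 8972 counts in PBS-2, 10063 in PBS-3 and at most 1 in each of the other 4 libraries, so PBS-2 and PBS-3 differ from the WGP libraries in this as well as in treatment. A fit with a covariate for Y-linked counts (the Y-linked covariate) rests mainly on PBS-1 against the WGP libraries. Low counts were uncertain, since the most frequent low count of a library lay between 17 and 43 and single molecules may therefore have given several reads. A count of 0 allows up to 0.0723 to 0.0814 CPM in a library, taking 3 counts as the limit, for counting error only. In bulk RNA, fewer cells of a type and less RNA per cell cannot be told apart.

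Of the 10 members 5 were called, that is, passed an adjusted p of 0.05 in edgeR with a log2 fold change of 1 or more in size, against 9.49% of all genes tested. At the adjusted p alone the same 5 passed, against 14.4% of all genes. Higher were Mmp14, Mmp2 and Mmp19, against 4.53% of all genes, and lower were Mmp9 and Timp2, against 4.96%. The groups did not overlap for 7 members, 4 with WGP above PBS (16.0% of all genes) and 3 below (16.1%), against 32.0% of all genes in either direction. The members were chosen on this contrast and nothing is read from these counts. The median log2 fold change of the 10 was 1.13, against -0.05 over all genes tested, and without WGP-2 it was -0.57. Without WGP-2, 4 members were called (2 higher and 2 lower), against 9.84% of 14183 genes.

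**Figure D2:**
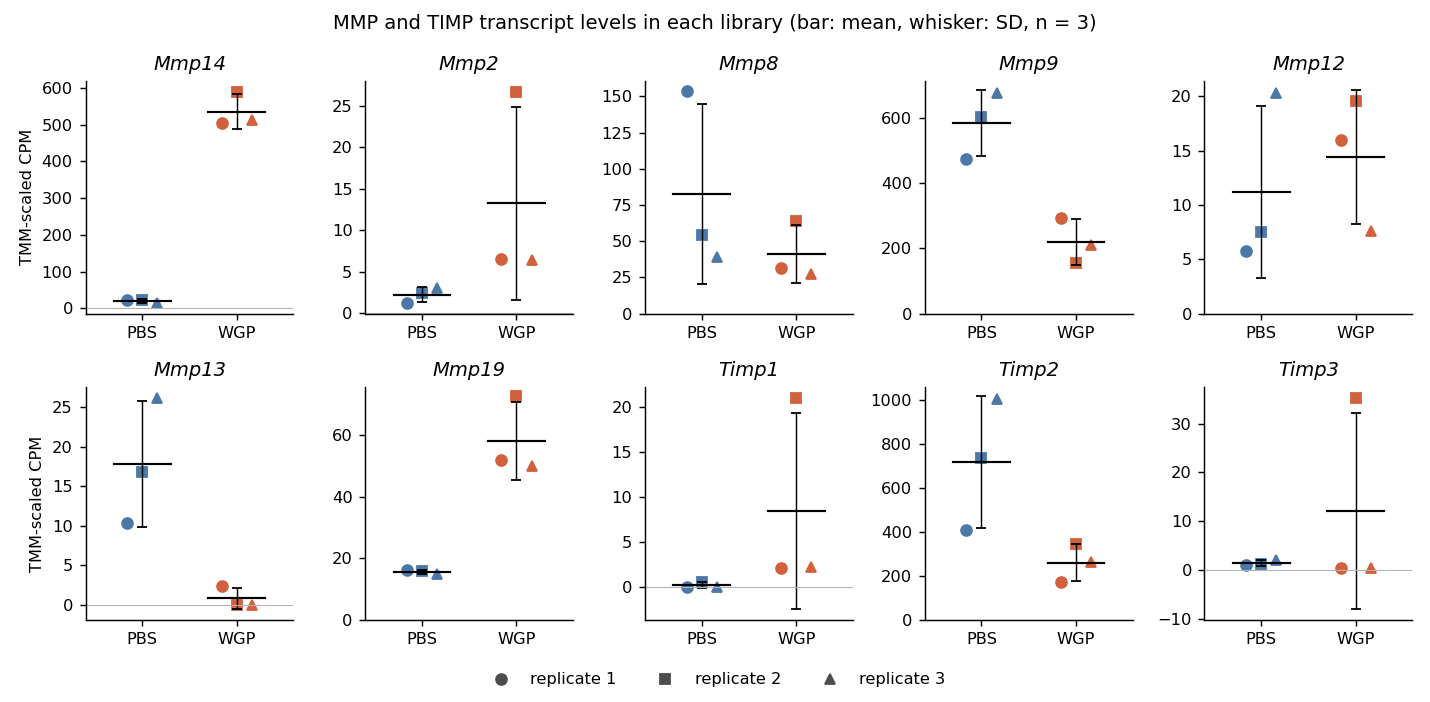
Level of each of the 10 genes in every library, as TMM-scaled CPM on a linear axis, with 1 panel per gene, points for the 3 libraries of each group, a bar at the mean and a whisker of 1 SD (n = 3). Mmp14 sits between 505 and 590 CPM in the WGP libraries and between 14.0 and 22.7 CPM in the PBS libraries, while the WGP means of Timp1 and Timp3 are drawn up by replicate 2 alone (21.0 and 35.3 CPM).

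Mmp14 (ENSMUSG00000000957, chr14:54431612-54445364 in GRCm38, plus strand) encodes MT1-MMP, a membrane-anchored collagenase and the activator of pro-MMP2. It was measured at 21.4, 22.7 and 14.0 CPM in PBS-1 to PBS-3 and at 505, 590 and 513 CPM in WGP-1 to WGP-3. The groups lay far apart, and the lowest WGP library was many times above the highest PBS library. From 19.3 ± 4.67 to 536 ± 47.2 CPM (SD, n = 3), the means differed 27.7-fold, which is 4.79 on the log2 scale (standard error 0.22). Without WGP-2 the log2 fold change was 4.72, and over 16 alternative fits it lay between 4.61 and 4.92. Its level varied little within the WGP group, with a coefficient of variation of 8.81%, the lowest of the members there, against 24.1% in the PBS group.

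Mmp19 (ENSMUSG00000025355, chr10:128790910-128800824) encodes a secreted MMP that cuts basement membrane proteins. Its levels of 16.1, 15.9 and 14.9 CPM in the PBS libraries were the most even of any member, with a coefficient of variation of 4.27%. In the WGP libraries it was at 51.9, 72.8 and 50.1 CPM, all above the PBS libraries. The means differed 3.73-fold, which is 1.90 on the log2 scale (standard error 0.21), or 1.71 without WGP-2. On the opposite strand Tmem198b shares 789 exon bases with Mmp19, and the strand setting of the counting is not given in the sources used here, so reads of both genes cannot be told apart there.

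Mmp2 and Mmp9 are the gelatinases, which cut denatured collagen and the type IV collagen of basement membranes. Mmp9 (ENSMUSG00000017737, chr2:164940780-164955850) was at 475, 601 and 676 CPM in the PBS libraries and at 293, 155 and 210 CPM in the WGP libraries. No WGP library reached the lowest PBS library. The means were 584 ± 101 and 219 ± 69.2 CPM (n = 3), so that the PBS mean was 2.66 times the WGP mean (log2 fold change -1.41, standard error 0.23). Across the alternative fits this value stayed between -1.68 and -1.12.

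Mmp2 (ENSMUSG00000031740, chr8:92827291-92853420) was low in the PBS libraries, at 1.22, 2.39 and 3.05 CPM. In the WGP libraries it was at 6.54, 26.7 and 6.45 CPM, above every PBS library but with WGP-2 at 4.11 times the mean of the other two. The log2 fold change was 2.57 (standard error 0.67) with all libraries and 1.55 (standard error 0.70) without WGP-2, the library with the high fibroblast and mesothelial markers. Mmp2 was called in 11 of 16 alternative fits and was not called without WGP-2, without PBS-1 (log2 fold change 2.28) or without PBS-2 (2.63), in limma-voom (2.34) or with the Y-linked covariate (3.43). The part of the fibroblast markers in its difference was not tested.

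Mmp8 and Mmp13 are secreted collagenases that cut fibrillar collagens, and both lie in the cluster of MMP genes on chromosome 9. Mmp13 (ENSMUSG00000050578, chr9:7272514-7283331) was at 10.4, 16.8 and 26.2 CPM in the PBS libraries, from 399, 656 and 1073 counts. It had 0 counts in WGP-2 and WGP-3 and 87 counts in WGP-1, which is 2.36 CPM, so the groups did not overlap. Its fitted log2 fold change, -4.51 with a standard error of 1.46, rested on how the fit treated the libraries at 0. Mmp13 was not called with all libraries and was called in 3 of the 16 alternatives, limma-voom, the fit without WGP-1, in which both remaining WGP libraries were at 0, and a further fit given with the limits.

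Mmp8 (ENSMUSG00000005800, chr9:7558456-7568485), the neutrophil collagenase, was at 154, 54.2 and 39.4 CPM in the PBS libraries and at 31.7, 63.9 and 27.4 CPM in the WGP libraries. PBS-1 was far above the rest, and the other PBS libraries lay within the WGP range. Its log2 fold change was -1.01 (standard error 0.48), not called, and -0.19 without PBS-1. With the Y-linked covariate, which sets PBS-1 against the WGP libraries, it was -1.91 and was called.

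Mmp12 (ENSMUSG00000049723, chr9:7344381-7369499) encodes macrophage elastase. Its values of 5.72, 7.52 and 20.3 CPM in the PBS libraries and 16.0, 19.6 and 7.60 CPM in the WGP libraries overlapped over nearly their whole range. This gave a log2 fold change of 0.36 with a standard error of 0.52, not called either in any of the 16 alternative fits, in which it ran from 0.05 to 1.33. Mmp1b on the opposite strand shares 157 exon bases with it, and was at 0 counts in every library.

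The chromosome 9 cluster holds 9 MMP genes of the count table between chr9:7272514 and chr9:7699585, in the order Mmp13, Mmp12, Mmp1b, Mmp3, Mmp10, Mmp8, Mmp27, Mmp20 and Mmp7. Mmp1a, whose RefSeq start lies between Mmp3 and Mmp10, is not in the count table. Mmp1b, Mmp10 and Mmp20 were at 0 counts in all 6 libraries. Mmp3, a stromelysin, was detected in PBS-1 and PBS-3 alone (0.47 and 1.30 CPM), and Mmp7, matrilysin, in WGP-3 alone (1.44 CPM). The neighbours did not share a direction: Mmp13 was lower in the WGP libraries, Mmp12 and Mmp8 overlapped between the groups, and Mmp27 had counts in the WGP libraries only.

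Timp2 (ENSMUSG00000017466, chr11:118301069-118355740, minus strand) was the most abundant inhibitor in every library. It was at 407, 734 and 1004 CPM in the PBS libraries and at 173, 343 and 262 CPM in the WGP libraries. All WGP libraries were below all PBS libraries, although PBS-1 was closer to WGP-2 than to the other PBS libraries. The log2 fold change was -1.46 (standard error 0.33) and -1.72 without WGP-2, and the PBS mean was 2.76 times the WGP mean. The call was lost without WGP-1 (log2 fold change -1.24), without WGP-3 (-1.47) and with the Y-linked covariate, where the value was -0.65.

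Timp1 (ENSMUSG00000001131, chrX:20870166-20874735) encodes a secreted inhibitor that also binds pro-MMP9. In the PBS libraries it had 0, 22 and 0 counts, and the 22 counts of PBS-2 (0.56 CPM) were fewer than the most frequent low count of that library, 30. In the WGP libraries it was at 2.06, 21.0 and 2.22 CPM, from 76, 872 and 91 counts, above every PBS library. The fitted log2 fold change was 5.47 with a standard error of 1.71, and 3.49 (standard error 2.49) without WGP-2, whose level was 9.81 times the mean of the other two. Timp1 was not called with all libraries, and it was called without PBS-2, in which fit both PBS libraries were at 0.

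Timp3 (ENSMUSG00000020044, chr10:86300372-86349506) encodes a matrix-bound inhibitor that also blocks ADAM17. Its levels were 0.94, 1.23 and 2.10 CPM in the PBS libraries, 0.46 CPM in each of WGP-1 and WGP-3, and 35.3 CPM in WGP-2. WGP-2 was thus 76.3 times the mean of the other WGP libraries, which were both below every PBS library. With all libraries the log2 fold change was 3.08 (standard error 1.41), and without WGP-2 its sign turned, to -1.61 (standard error 1.87). Syn3 on the opposite strand shares 1733 exon bases with Timp3.

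**Figure D3:**
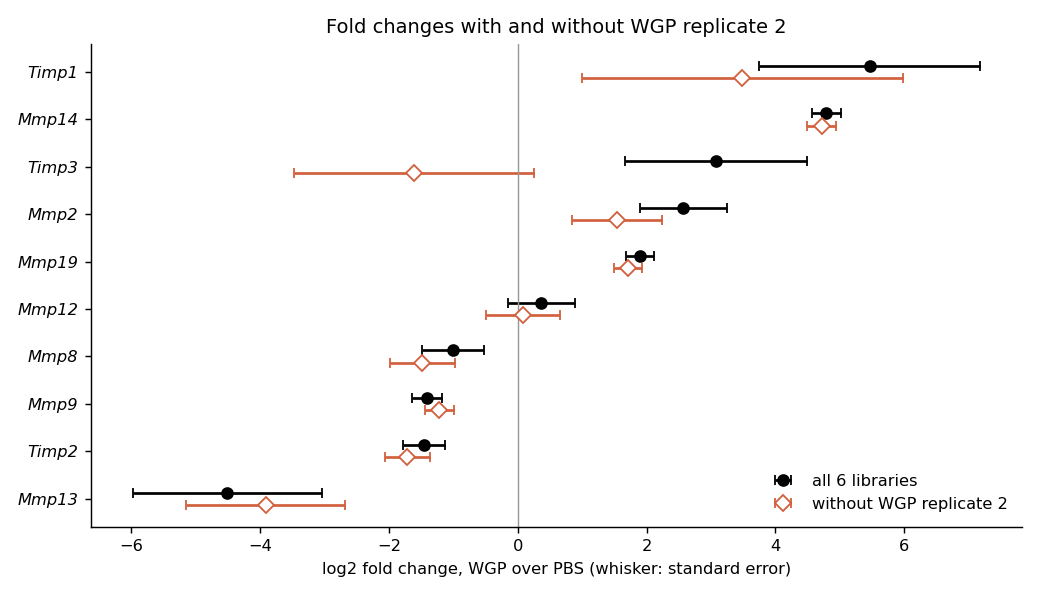
Log2 fold change of WGP over PBS for the 10 genes with all 6 libraries (filled points) and without WGP replicate 2 (open points), with whiskers of 1 standard error from edgeR. Mmp14, Mmp19 and Mmp9 barely shift (4.79 to 4.72, 1.90 to 1.71 and -1.41 to -1.22), Mmp2 moves from 2.57 to 1.55, and Timp3 turns from 3.08 to -1.61.

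Levels were compared between genes per kilobase of exon, as RPKM on the TMM-scaled libraries. In the PBS libraries the mean levels ran from Timp2 (184 RPKM) and Mmp9 (165) through Mmp8 (34.0), Mmp13 (6.66), Mmp19 (4.42), Mmp14 (3.25), Mmp12 (1.54) and Mmp2 (0.659) to Timp1 (0.212) and Timp3 (0.175). Between neighbours in this order the ranges over libraries were apart only for Mmp9 and Mmp8, for Mmp8 and Mmp13, and for Mmp19 and Mmp14. In the WGP libraries Mmp14 led (89.9 RPKM), followed by Timp2 (66.6), Mmp9 (61.9), Mmp8 (16.9), Mmp19 (16.5), Timp1 (9.50), Mmp2 (3.92), Mmp12 (1.99), Timp3 (1.48) and Mmp13 (0.294). The only neighbours with ranges apart there were Mmp9 and Mmp8.

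The summed level of the 7 MMPs was 211, 208 and 227 RPKM in the PBS and 200, 200 and 174 RPKM in the WGP libraries, so every WGP library was below every PBS library. Mmp14 took 1.70%, 1.82% and 1.03% of this sum in the PBS libraries and 42.3%, 49.4% and 49.5% in the WGP libraries. Mmp9 took 63.6%, 81.4% and 84.0% in the PBS libraries and 41.3%, 21.9% and 34.1% in the WGP libraries. Neither share overlapped between the groups, and in each WGP library that of Mmp14 was above that of Mmp9, by the smallest margin in WGP-1. Mmp8 took 30.1% in PBS-1 and between 6.51% and 13.2% in the other 5 libraries, and Mmp19 between 1.85% and 2.16% in the PBS and between 7.34% and 10.3% in the WGP libraries.

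The 3 TIMPs summed to 105, 189 and 258 RPKM in the PBS libraries and to 46.9, 116 and 69.9 RPKM in the WGP libraries, where PBS-1 lay below WGP-2. Timp2 made up 99.9%, 99.6% and 99.9% of this sum in PBS-1 to PBS-3, 94.9% in WGP-1, 75.8% in WGP-2 and 96.3% in WGP-3. Timp1 reached 20.4% in WGP-2, against 4.95% and 3.58% in WGP-1 and WGP-3. The ratio of summed MMP to summed TIMP transcripts was 2.01, 1.10 and 0.881 in the PBS libraries and 4.27, 1.73 and 2.49 in the WGP libraries. The groups overlapped in this ratio, since PBS-1 was above WGP-2. These are transcript levels, and neither the proteins nor their activity were measured.

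**Figure D4:**
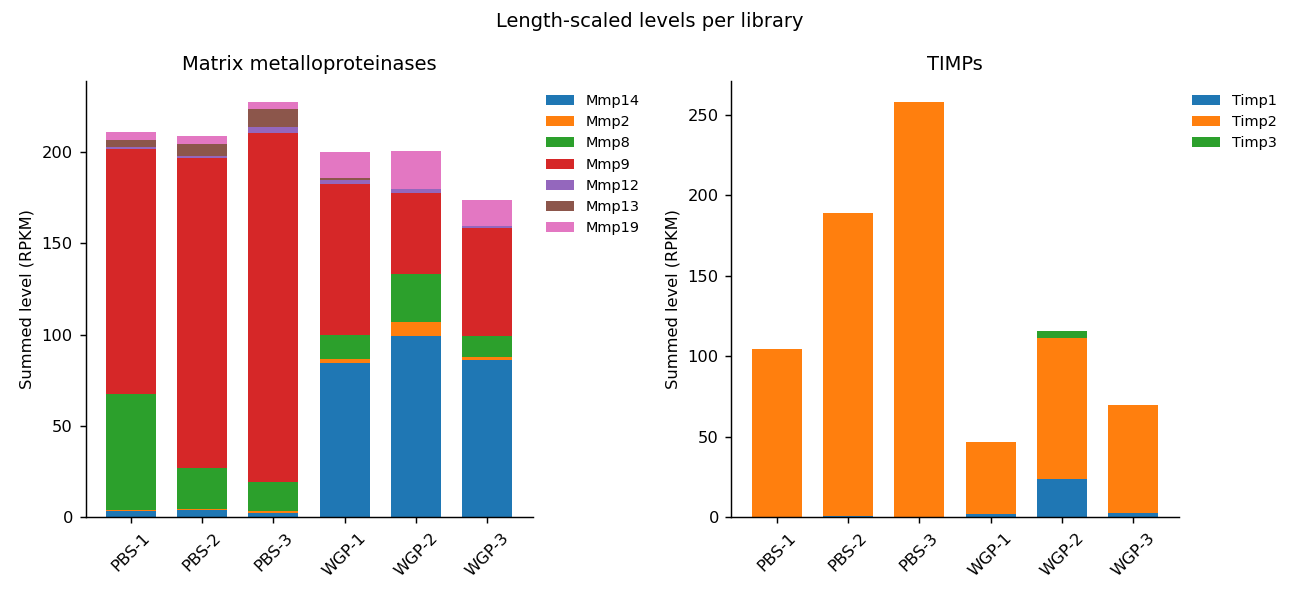
Stacked length-scaled levels (RPKM) of the 7 MMPs (left) and the 3 TIMPs (right) in each of the 6 libraries, with 1 colour per gene and axes from 0. The MMP bars are of similar height (174 to 227 RPKM), with Mmp9 the largest segment in the PBS libraries and Mmp14 the largest in the WGP libraries, and the TIMP bars are almost wholly Timp2 except in WGP-2.

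Markers of several cell types moved with the groups. Of all genes tested 4.53% were called higher and 4.96% lower, and without WGP-2 9.84% in either direction. These are the shares to set beside the counts of each marker list. Of 13 resident macrophage markers 10 were called lower in edgeR (C1qa, log2 fold change -1.34, adjusted p = 0.00578) and 0 higher, and their summed level was 13074, 23302 and 27829 CPM in the PBS libraries and 6720 to 8529 CPM in the WGP libraries. Mmp9, Mmp13 and Timp2 followed the same order over the PBS libraries, lowest in PBS-1 and highest in PBS-3, and were lower with the markers in the WGP libraries. Mmp2, Mmp12 and Timp3, whose WGP means were not lower, had this order over the PBS libraries as well, so it was not particular to the members that fell. Within the WGP libraries Mmp9 and Mmp13 did not follow the marker sum, which was lowest in WGP-1 (6720 CPM), where Mmp9 was highest of the 3 and the only WGP counts of Mmp13 were found. Timp2 had the order of the sum, lowest in WGP-1 and highest in WGP-2. Csf1r, the receptor that marks monocytes and macrophages as a whole, was not called (log2 fold change -0.31, adjusted p = 0.456 in edgeR). Of 8 markers of Ly6C-high monocytes 5 were called higher, with summed levels of 1849 to 3051 CPM in the PBS and 6497 to 8210 CPM in the WGP libraries, and Ccr2 among them rose by 1.98 on the log2 scale (adjusted p = 0.000349 in edgeR). Mmp14 and Mmp19 were higher in the same 3 libraries. So were 4 of 9 markers of lipid-associated macrophages, of which 2 others were called lower. The part of any of these cell types in the differences of Mmp9, Mmp13, Timp2, Mmp14 and Mmp19 was not tested.

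Neutrophil markers, 16 genes with Mmp25 among them, had 2 genes called higher and 2 lower. Their summed level was 6903, 3480 and 1962 CPM in the PBS libraries and 2675 to 3011 CPM in the WGP libraries, highest in PBS-1, as Mmp8 was. Mmp9 went the other way over the PBS libraries and was lowest in PBS-1. Over the 6 libraries together, without scaling to length, S100a9, Ngp and Csf3r had the highest mean CPM of these markers. S100a9 and Ngp were not called (log2 fold changes of -0.77 and -1.28, adjusted p = 0.249 and 0.104 in edgeR). Csf3r was above the PBS libraries in every WGP library and passed the adjusted p but not the fold change threshold (log2 fold change 0.81, adjusted p = 0.00925 in edgeR). Called higher were Mmp25 and the chemokine receptor Cxcr2 (log2 fold change 1.30, adjusted p = 0.00320 in edgeR), and called lower were Elane and Mpo (log2 fold change -5.68, adjusted p = 0.00490 in edgeR), both highest in PBS-1. Neither Elane nor Mpo was called in limma-voom. The part of neutrophils in the Mmp8 level of PBS-1 was not tested. Of the 11 fibroblast and stellate cell markers 0 were called with all libraries in edgeR, DESeq2 or limma-voom (3 had an unadjusted p below 0.05 in edgeR), and without WGP-2 4 were called lower. Col1a2 was at 15.0 to 16.5 CPM in the PBS libraries and at 9.17, 386 and 4.01 CPM in WGP-1 to WGP-3, and was the nearest gene to Timp3 in profile.

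Among markers of other cell types, some of them outside the CD45+CD11b+ sort, all 9 acinar cell genes in the table, of 10 listed, were called lower (1273 to 5130 CPM summed in the PBS and 358 to 623 CPM in the WGP libraries). How transcripts of cells outside the sort came into the libraries was not tested. Of 7 T, B and NK cell markers 3 were called lower, with a sum of 1740 CPM in PBS-1, 443 and 264 CPM in PBS-2 and PBS-3, and 62.4 to 130 CPM in the WGP libraries. Of 8 eosinophil markers 1 was called lower in edgeR (Ear2, whose groups overlapped; 0 were called lower without WGP-2 or in limma-voom), of 8 dendritic cell markers 1 lower (Cd209a), of 7 endothelial markers 1 higher (Kdr), of 9 markers of lipid-associated macrophages 4 higher and 2 lower, and of 7 mesothelial markers 0 in edgeR, DESeq2 or limma-voom (2 had an unadjusted p below 0.05 in edgeR).

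**Figure D5:**
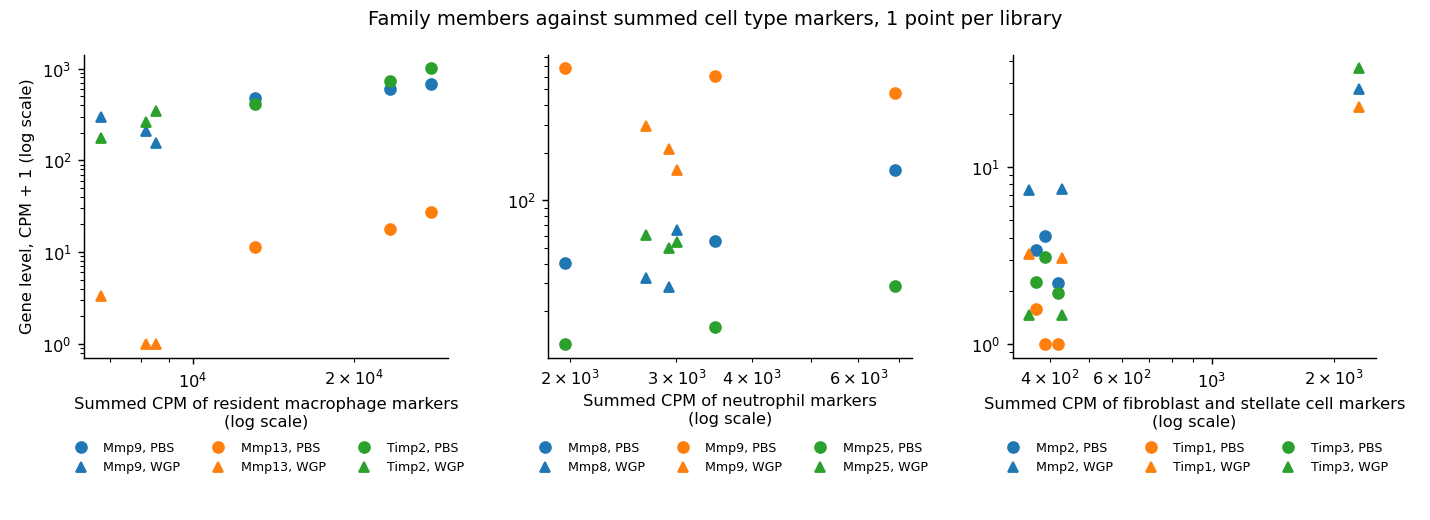
Levels of 8 family genes (CPM + 1, log scale) against the summed CPM of resident macrophage, neutrophil and fibroblast or stellate cell markers (log scales), with 1 point per library, circles for PBS and triangles for WGP. Mmp9, Mmp13 and Timp2 are lower in the WGP libraries, where the macrophage sum is 6720 to 8529 CPM, Mmp8 is highest in the library with the highest neutrophil sum (6903 CPM, a list that holds Mmp25 itself), and Mmp2, Timp1 and Timp3 are highest in the library with a fibroblast sum of 2313 CPM.

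The other genes of the family were mostly at or near 0. The table held 16 further MMP and TIMP genes, of which 12 were tested. In edgeR 1 was called higher and 0 lower, 1 of 12 where 9.49% of all genes were called. An unadjusted p below 0.05 was found for 2 in edgeR, and DESeq2 called 2. Mmp25 (ENSMUSG00000023903), a membrane-anchored MMP of leukocytes, was at 28.0, 14.9 and 11.5 CPM in the PBS libraries and at 59.1, 53.7 and 49.5 CPM in the WGP libraries. It rose 1.58 on the log2 scale (standard error 0.31, adjusted p = 0.00632 in edgeR). With the Y-linked covariate, which leaves PBS-1 as the main reference, the log2 fold change was 0.95 and was not called (adjusted p = 0.0525 in edgeR). It was called in the other 15 of the 16 alternatives.

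Mmp27, next to Mmp8 on chromosome 9, had 0 counts in the PBS libraries and was at 0.68, 2.82 and 1.86 CPM in the WGP libraries. With a floor of 3 counts over the PBS group it was at least 70.4-fold higher, and with a floor of 129 counts, which is 3 times the highest value of the most frequent low count among the PBS libraries (43), at least 1.64-fold. It was not called by edgeR with all libraries (adjusted p = 0.0568) and was called by DESeq2 (adjusted p = 0.000181), limma-voom (adjusted p = 0.0175) and edgeR after filterByExpr (adjusted p = 0.0452). Mmp23 was at 1.01, 0 and 0.34 CPM in the PBS libraries and 1.03, 6.95 and 0.59 CPM in the WGP libraries, highest in WGP-2. Mmp28 was at 1.70 ± 0.97 CPM in the PBS and 1.01 ± 0.71 CPM in the WGP libraries (n = 3), and Mmp15 ran from 0.44 to 1.76 and from 0 to 0.72 CPM. Mmp11 reached 2.25 CPM in PBS-3 and Mmp17 1.39 CPM in PBS-3 and 0.82 CPM in WGP-2, with 0 counts in the other libraries. None of these was called by edgeR with all libraries. Mmp16, Mmp21 and Mmp24 stayed below 1 CPM in every library, and Timp4 was at 0 counts throughout.

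MMPs are activated and held in check by other proteases, their inhibitors and cell surface proteins, and of 30 such genes 26 were tested, of which 1 was called higher and 3 lower in edgeR, 4 of 26 where 9.49% of all genes were called. At the adjusted p alone 3 were higher and 4 lower, where 14.4% of all genes passed. The median log2 fold change of the 26 was 0.32, against -0.05 over all genes tested, and without WGP-2 it was -0.15, against -0.10. Plau, urokinase, which turns plasminogen into the MMP-activating protease plasmin, was at 136, 189 and 161 CPM in the PBS libraries and at 49.7, 63.7 and 47.6 CPM in the WGP libraries. It fell by 1.59 on the log2 scale (standard error 0.18, adjusted p = 0.000267 in edgeR) and was called in all 16 alternatives. Its receptor Plaur, at 228, 196 and 149 CPM in the PBS libraries and 235, 176 and 131 CPM in the WGP libraries, overlapped between the groups and was not called (adjusted p = 0.880 in edgeR).

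Furin, the convertase that removes the propeptide of membrane-type MMPs such as MMP14, was at 162, 222 and 209 CPM in the PBS libraries and at 345, 406 and 351 CPM in the WGP libraries. All WGP libraries were above all PBS libraries, and the difference of 0.90 on the log2 scale (standard error 0.16, adjusted p = 0.00422 in edgeR) passed the adjusted p but not the fold change threshold. Sdc1 (syndecan-1), a cell surface proteoglycan that MMPs shed, was at 4.73, 1.72 and 11.7 CPM in the PBS and 38.0, 52.6 and 30.3 CPM in the WGP libraries. It rose 2.74 on the log2 scale (adjusted p = 0.00894 in edgeR), and the call was lost with the Y-linked covariate (log2 fold change 3.09, adjusted p = 0.0650). Reck, a membrane-bound MMP inhibitor, was below 2 CPM in every library and was not called (adjusted p = 0.770 in edgeR).

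Elane, neutrophil elastase, was at 60.2, 9.63 and 2.64 CPM in the PBS libraries and at 1.71, 3.42 and 1.39 CPM in the WGP libraries. It fell in edgeR (log2 fold change -3.47, adjusted p = 0.0357), but the level was highest in PBS-1, the library with the highest neutrophil sum, and it was called in 10 of 16 alternatives. Its call was lost in limma-voom (adjusted p = 0.424), after filterByExpr in edgeR (adjusted p = 0.0550), in 1 fit given with the limits, without PBS-1 (log2 fold change -1.50, adjusted p = 0.297), without WGP-1 (-3.32, adjusted p = 0.122) and without WGP-3 (-3.23, adjusted p = 0.123). Serpinf2, the plasmin inhibitor α2-antiplasmin, was at 2.86, 1.80 and 1.25 CPM in the PBS libraries and at 0 counts in the WGP libraries. It was at least 78.2-fold lower at a floor of 3 counts over the WGP group and at least 2.37-fold lower at a floor of 99 counts. It fell in edgeR (adjusted p = 0.0427) and was called in 8 of 16 alternatives. The call was lost whichever of the 6 libraries was left out (adjusted p from 0.0611 to 0.125 in edgeR), with the Y-linked covariate and in 1 fit given with the limits.

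Of 22 genes of matrix proteins that MMPs cut, 21 were tested. In edgeR 3 were called higher and 0 lower, where 9.49% of all genes were called, and 7 had an unadjusted p below 0.05. DESeq2 also called 3 higher and 0 lower. Vcan, the proteoglycan versican and also one of the monocyte markers, was at 14.7, 9.73 and 10.9 CPM in the PBS libraries and at 136, 256 and 131 CPM in the WGP libraries, and rose by 3.89 on the log2 scale (adjusted p = 2.65e-05 in edgeR). Spp1 (osteopontin), also on the list of lipid-associated macrophage markers, rose from 9.31, 10.5 and 9.24 CPM to 57.8, 56.2 and 56.4 CPM (log2 fold change 2.55, adjusted p = 2.34e-05 in edgeR). Thbs1 (thrombospondin-1) rose from 249, 295 and 252 CPM to 3619, 1173 and 1447 CPM (log2 fold change 2.97, adjusted p = 0.000530 in edgeR), and without WGP-1, its highest library, the log2 fold change was 2.31. All 3 were called in each of the 16 alternatives. Much of the list depended on WGP-2. Its median log2 fold change was 2.02 with all libraries and -1.43 without WGP-2, against -0.05 and -0.10 over all genes, and 14 genes turned from a positive to a negative value, the collagens among them. Without WGP-2, 3 genes were called higher and 7 lower of 20 tested, where 9.84% of all genes were called in either direction. Fn1 (fibronectin), also a monocyte marker, kept a higher level in every WGP library (3008, 4691 and 2560 CPM) than in the PBS libraries (513, 1171 and 2293 CPM) and was not called (adjusted p = 0.0702 in edgeR).

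The ADAM and ADAMTS families, relatives of the MMPs, had 53 genes in the table, of which 35 were tested, with 1 called higher and 5 lower in edgeR, 6 of 35 where 9.49% of all genes were called. The genes were taken by symbol, and not every one of them encodes an active protease. Their median log2 fold change was -0.73, against -0.05 over all genes, and without WGP-2 it was -2.47, against -0.10. Of the 33 genes tested without WGP-2, 11 were at 0 counts in both other WGP libraries, and their fold changes depend on how the fit treated 0. Adam17, the sheddase of TNF and a target of TIMP3, was at 141, 167 and 164 CPM in the PBS libraries and at 350, 378 and 332 CPM in the WGP libraries. It rose by 1.17 on the log2 scale (standard error 0.14, adjusted p = 0.000382 in edgeR) and was called in all 16 alternatives. Adam8 and Adam10, which are also sheddases of leukocytes, were not called, with log2 fold changes of 0.25 and 0.28 (adjusted p = 0.381 and 0.343 in edgeR).

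Adam33 was at 58.7, 88.2 and 83.1 CPM in the PBS libraries and at 5.10, 7.38 and 4.79 CPM in the WGP libraries, and fell by 3.73 on the log2 scale (adjusted p = 1.86e-05 in edgeR). Adam19 fell from 186, 255 and 258 CPM to 60.8, 41.0 and 65.0 CPM (log2 fold change -2.07, adjusted p = 0.000142 in edgeR). Adam23 fell as well (log2 fold change -2.51, adjusted p = 0.0117 in edgeR), and these 3 calls held in all 16 alternatives. Adamts14, a procollagen N-proteinase, and Adam22 fell with log2 fold changes of -1.99 and -2.86 (adjusted p = 0.0268 and 0.0292 in edgeR), and each was called in 10 of 16 alternatives. The call of Adamts14 was lost in limma-voom and without PBS-1, PBS-2, WGP-1 or WGP-3 (log2 fold change -1.41, -2.06, -1.72 and -2.14), and that of Adam22 in limma-voom (-2.94), with the Y-linked covariate (-2.20) and without PBS-2, WGP-1 or WGP-3 (-2.36, -3.19 and -3.01). Both were also lost in 1 fit given with the limits.

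For each member the genes with the most similar profile were found by the root mean square distance of centred log2 CPM over the 6 libraries, among 11681 genes with a mean of at least 1 CPM. Mmp14 was closest to Gbp8 (distance 0.140), Gbp4 (0.297) and Il1rn (0.372). Mmp9 was closest to Nfkbiz (0.0894), Gpr160 and Ust, and Mmp19 to Rab32 (0.0963), Pgam1 and Abtb2. Timp2 lay nearest to Mtmr10 (0.143), Inka1 and Lrp6, and Mmp2 to Slc7a2 (0.294), Plcb1 and Bnip3. Mmp8 was nearest to Carmil1 (0.0835), Cep55 and Traf3ip2, and Mmp12 to Zfp229 (0.166), Metrn and Gtf2e2. Timp3 lay nearest to Col1a2 (0.509), Serping1 and Loxl1, of which Col1a2 was also high in WGP-2. Mmp13 and Timp1, both with libraries at 0, had no close neighbour: the nearest were Homer2 (0.771), Tox2 and Wfikkn1 for Mmp13, and Art2b (0.940), Iigp1 and Cxcl9 for Timp1. With 6 libraries in 2 groups, many genes share such a profile, and nearness describes these libraries only.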

How the data were processed

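CD45+CD11b+ cells of 3 PBS and 3 WGP samples were sequenced as 75-base reads from 10 ng of RNA. The authors aligned reads to mm10 with STAR 2.6, obtained reads per Ensembl gene with HTSeq 0.10.0 and deposited raw counts without normalization. The annotation release, strand setting and handling of duplicate reads are not given in the sources used here. Symbols, positions and exon lengths were taken from GENCODE vM21 (GRCm38), and promoters from RefSeq (GRCm38.p6).

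In R 4.3.3, WGP was compared with PBS by the quasi-likelihood test of edgeR 4.0.16 with TMM scaling. Tested were 14429 protein-coding genes whose RLE-normalized counts summed to 10 or more. P-values were adjusted over all of these by the Benjamini-Hochberg method, and a called gene had an adjusted p up to 0.05 and a log2 fold change of 1 or more in size. Standard errors are log2 fold changes over the square root of F. Scripts were tested on simulated data. Alternatives were RLE, upper-quartile and library-total scaling, DESeq2 1.42.0, voom of limma 3.58.1, other filters, a replicate block, a covariate for Y-linked counts, each library left out and no fold threshold.

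The members, gene lists and tests were chosen with earlier results of these data known. Named genes are all members, the other family genes with at least 1 CPM in any library, called genes of the other lists (at most the 6 with the smallest p), Plau, Plaur, Furin, Reck, Timp4, Adam8, Adam10 and Adam17, up to 3 of the most abundant markers of each list, and the 3 nearest profiles of each member. Cxcr2 and Mpo were named after their values were seen, and not every marker that the rule allows is named. Some genes that the rule names are not reported here. Family genes below 1 CPM are named only by their position or absence. Over 43341834 counts at most, precision is limited by 3 libraries a group.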

Additional observations from a re-analysis of the deposited data

How the results depend on the processing

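Of the 10 members, Mmp14, Mmp9 and Mmp19 were called in all 16 alternative fits, Timp2 in 13 and Mmp2 in 11. Members called numbered 4 to 5 when each library was left out in turn. The other results kept their count within 1.5 times except as follows. Without a fold threshold 2071 genes passed in place of 1369, and 7 genes of MMP activation and control in place of 4. Other MMP and TIMP genes called numbered 2 with DESeq2, limma-voom or filterByExpr and 0 with the Y-linked covariate, in place of 1, and stayed at 1 when a library was left out. Genes of MMP activation and control called numbered 7 with the Y-linked covariate and 2 to 3 when a library was left out. When a library was left out, matrix genes called ran from 3 to 10, the highest without WGP-2, ADAM and ADAMTS genes from 4 to 7, and all genes from 1146 to 1396. With DESeq2, 8 ADAM and ADAMTS genes and 1703 genes in all were called. With library totals only, 554 genes were called higher and 824 lower, against 653 and 716, and the median of all genes moved from -0.05 to -0.16 (log2). The log2 fold change of Plaur ran from -0.31 to 0.10 over the fits that left out a library and was above 0 without PBS-1 (0.07) or WGP-3 (0.10). The cause was not tested.

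With the replicate number as a block 1341 genes, 7 members, 2 genes of MMP activation and control, 4 matrix genes and 4 ADAM and ADAMTS genes were called. Mmp13 and Timp1 were called in this fit (log2 fold change -7.11 and 6.69). Elane (adjusted p = 0.0952 in edgeR), Serpinf2, Adamts14 and Adam22 were not, and the log2 fold change of Timp3 was 0.04. Same-numbered libraries of the groups did not deviate together (correlations of 0.0027, -0.0446 and 0.0105). Correlations over all genes cannot exclude a pairing, since effects of single libraries can cover a shared one, so whether the numbers pair the samples is not known.

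With 3 libraries a group, the levels of Mmp13 in the WGP libraries and of Timp1 and Timp3 outside WGP-2 come from at most 91 counts a library.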
